A study of Sordaria macrospora with 8 samples.

Results

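The peaks described here are stretches of the *Sordaria macrospora* genome with enrichment of histone H3 acetylated at lysine 56 (H3K56ac) that were listed for the wild type and had no counterpart in the Δasf1 mutant. They were chosen by position alone: a peak of the pooled wild-type list was taken when no peak of the pooled Δasf1 list overlapped it by 1 bp or more. This rule took 1255 of 7430 wild-type peaks, 16.9% with a 95% Wilson interval from 16.1% to 17.8%, and the remaining 6175 are called the other wild-type peaks. In the opposite direction, 808 of 7117 Δasf1 peaks, 11.4%, had no wild-type peak on them. Because these shares follow from the choosing rule, nothing further is read from them.

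ASF1 is a histone chaperone that carries dimers of histones H3 and H4 during the assembly and disassembly of nucleosomes. In the yeast *Saccharomyces cerevisiae* it presents H3 to the acetyltransferase Rtt109, which places the acetyl group on lysine 56 before the histone is deposited on DNA. The mark is therefore known in yeast from newly assembled nucleosomes, behind the replication fork and where histones are exchanged during transcription.

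Chromatin of the asf1 deletion strain (delta-asf1 in the labels, written Δasf1) and of the wild type was immunoprecipitated with an antibody against H3K56ac, with 2 immunoprecipitated and 2 input samples per strain. Cultures in liquid complete medium were kept under continuous light at 27 °C, Δasf1 for 3 days and the wild type for 2 days, because the mutant grows more slowly. Formaldehyde (1%, 15 min) fixed the chromatin of both strains and micrococcal nuclease (230 U per ml, 105 min) fragmented it. The genotype and the additional day of growth cannot be told apart in this design. Each strain has 1 pooled list with no value per replicate and no read depth, so the strains were compared as lists, without a test, and an interval of a share or a median covers counting of peaks only, since peaks are no replicates of the strain they come from.

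The authors' Δasf1 list was smaller in total extent than their wild-type list. The Δasf1 peaks covered 14871 kb, less than the 15286 kb under the other wild-type peaks alone. The wild-type-only peaks covered a further 1368 kb. The wild-type-only peaks were thus 16.9% of the wild-type peaks but 8.21% of the bases under them. The fold given for each peak is the enrichment over the local background averaged over the peak, and −log10 q is the significance that the peak caller attached to it. The whole wild-type list was of low enrichment, with a median fold of 1.25 and a highest fold of 1.58. The Δasf1 list had slightly higher middle and upper values, with a median fold of 1.26. Its median −log10 q was 2.64, against 2.21 for the whole wild-type list. The highest 10% began at a fold of 1.33 in Δasf1 and of 1.31 in the wild type, while the lowest 10% ended at 1.20 in each list. The cause of this difference was not tested.

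Wild-type-only peaks were narrow. Their median width was 931 bp (95% interval of the median from 897 to 976 bp, n = 1255), against 1888 bp (1846 to 1928 bp, n = 6175) for the other wild-type peaks. The interquartile range was 611.5 to 1323 bp for the wild-type-only peaks and 1056 to 3278.5 bp for the other wild-type peaks. The widest wild-type-only peak had 5249 bp and the widest of the others had 54277 bp, so broad domains were rare among them. A wide peak meets a peak of another list more readily than a narrow one, so this difference depends on the choosing rule and was not tested. Sorted by width into 10 groups of nearly equal size, 272 of the 746 narrowest wild-type peaks (270 to 573 bp) were wild-type-only, 36.5% (33.1% to 40.0%). Among the 743 widest (4672 bp and more) there were 2, which is 0.269% (0.0738% to 0.976%). The share fell on both sides of the middle of the range, as it was 19.4% in the fifth group and 10.6% in the sixth. Of the wild-type-only peaks, 84.8%, 1064 peaks, were narrower than the median of the list, and 191 were not.

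**Figure D1:**
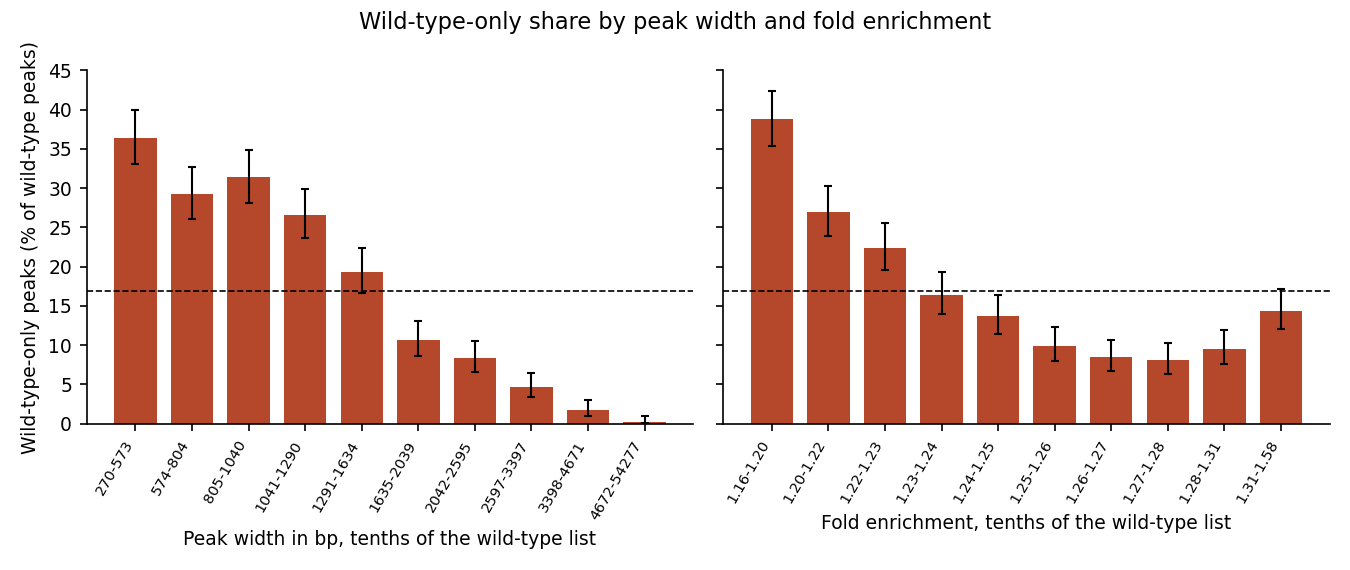
Share of wild-type peaks that were wild-type-only (y axis, percent) in 10 groups of the wild-type list by peak width (left, bp) and by fold enrichment (right); bars are shares, whiskers 95% Wilson intervals, and the dashed line is the 16.9% of the whole list. The share falls with width to 0.269% among the widest peaks, while along the fold it is lowest, 8.08%, in the eighth group and 14.4% in the group of highest fold.

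The enrichment of the wild-type-only peaks was lower over most of the distribution, although the highest single value was among them. The median fold was 1.22 for wild-type-only peaks and 1.25 for the other wild-type peaks, and the median −log10 q was 1.82 and 2.28. The highest 10% began at a fold of 1.30 for wild-type-only peaks and of 1.31 for the others. On each of 7 chromosomes the wild-type-only peaks had the lower median fold and the lower median width. Of the 744 peaks with the lowest fold (1.16 to 1.20), 38.8% were wild-type-only (35.4% to 42.4%). The share declined to 8.08% (6.33% to 10.3%) at a fold of 1.27 to 1.28 and was 14.4% (12.1% to 17.1%) among the 743 peaks of highest fold. The lower median was also present among peaks of like width, where in the narrowest of 4 width classes (270 to 916 bp) the median fold was 1.22 for 613 wild-type-only peaks and 1.24 for 1247 others. In the next class (917 to 1634 bp) it was 1.23 for 451 wild-type-only peaks and 1.25 for 1404 others. Narrow and weak peaks together had the highest share, with 312 of 724 peaks (43.1%) in the lowest of 4 classes of both width and fold being wild-type-only. In the highest class of both there were 2 of 512 (0.391%).

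The wild-type peak with the highest fold of the entire list was itself wild-type-only. It lay on chromosome 2 at chr2:941177-941458, had a width of 282 bp, a fold of 1.58 and a −log10 q of 11.9, and the nearest Δasf1 peak was 3540 bp away. No protein-coding gene overlapped it, and the nearest gene, SMAC4_13206, was 1681 bp away. The next by fold among the wild-type-only peaks was chr7:513512-513807 with a fold of 1.45 in SMAC4_03841, only 296 bp wide and rank 8 of the whole list. It was followed by chr2:5356783-5359073, 2291 bp wide with a fold of 1.44, 1124 bp from SMAC4_13311. The fourth was chr4:1325768-1326037 in SMAC4_06451 with 270 bp, which is the shortest width in the list, and a fold of 1.43. The fifth was chr3:4416894-4417815 in SMAC4_01139, with 922 bp and a fold of 1.41. The same 5 peaks had the highest −log10 q among the wild-type-only peaks, from 6.54 to 11.9. Of the 10 wild-type peaks with the highest fold 2 were wild-type-only, of the top 50 there were 9, and of the top 100 there were 16, which is near the 16.9% of the list.

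The 5 widest wild-type-only peaks had folds from 1.22 to 1.25, near the median of the wild-type-only peaks. The widest, chr3:2325821-2331069, covered 5249 bp at SMAC4_00791 with a fold of 1.23 and a −log10 q of 1.94. The second, chr2:2969113-2973866, had 4754 bp and a fold of 1.22, with SMAC4_03961 as the nearest gene at 1946 bp. The third, chr2:1415692-1420046, had 4355 bp, lay 51 bp from a Δasf1 peak and had a fold of 1.22, with SMAC4_04442 as the nearest gene at 203 bp. The fourth, chr4:2145116-2149469, overlapped 3 genes (SMAC4_09859, SMAC4_13632 and SMAC4_13633) with a fold of 1.25, and it was 4557 bp from a Δasf1 peak. The fifth, chr3:693893-698226, had 4334 bp and a fold of 1.24 and lay 662 bp from a Δasf1 peak.

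With the lists as deposited, most wild-type-only peaks lay within 2000 bp of a Δasf1 peak. The distance to the nearest Δasf1 peak, counted as the bases between both edges, had a median of 1693 bp (1619 to 1762 bp), with 10% of the peaks below 800.6 bp and 10% above 4140 bp. Up to 2000 bp there were 754 peaks, 60.1%. This depended on the rule and on the length of the lists, as the median distance was 3415 bp with the highest-scoring 3715 wild-type and 3558 Δasf1 peaks and 0 bp with a reciprocal overlap of 50%. Between 2000 and 5000 bp lay 424 peaks and between 5000 and 10000 bp 70 peaks, and 7 peaks were more than 10000 bp away. The other wild-type peaks overlap a Δasf1 peak by definition, and their distance to the nearest Δasf1 peak that did not overlap them had a median of 1914 bp (1879 to 1950 bp). In neither list did neighbouring peaks lie closer together than about 1 kb, as the shortest gap was 1066 bp in the Δasf1 list and 1084 bp in the wild-type list. Below this length, 202 wild-type-only peaks (16.1%) approached a Δasf1 peak, and the number of peaks per distance rose sharply just beyond it.

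**Figure D2:**
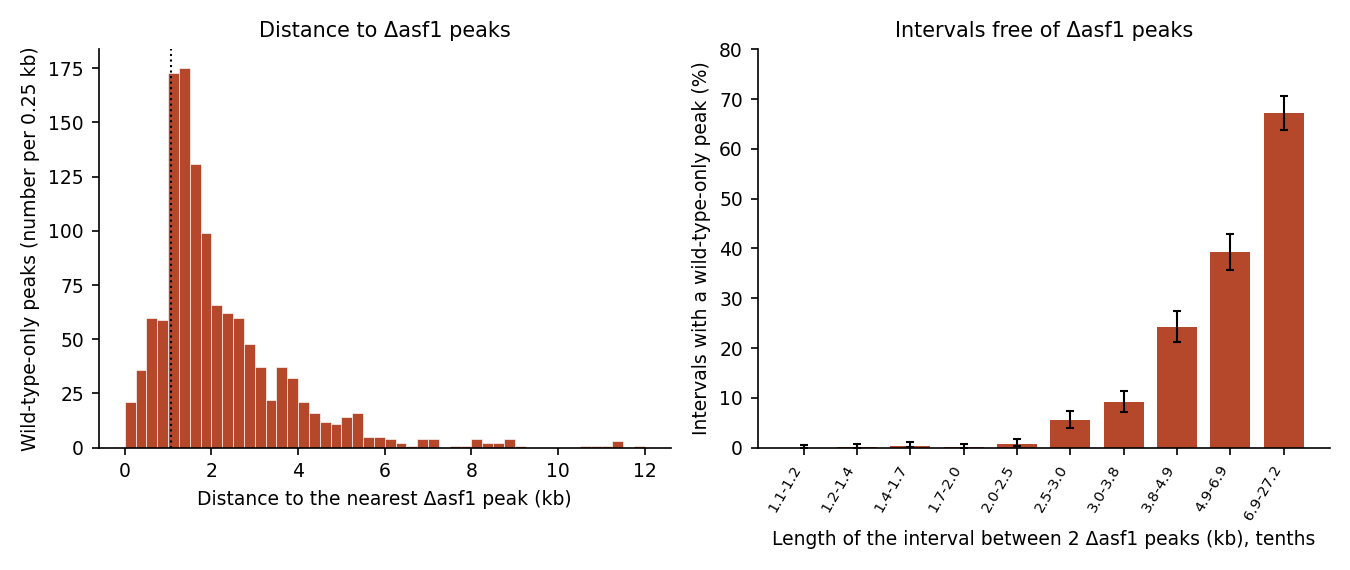
Left, number of wild-type-only peaks (y axis) by distance to the nearest Δasf1 peak (x axis, kb, bins of 0.25 kb), with the dotted line at 1066 bp, the shortest gap between Δasf1 peaks. Right, share of the intervals between 2 neighbouring Δasf1 peaks that held a wild-type-only peak (y axis, percent, whiskers 95% Wilson intervals) in 10 groups by interval length (x axis, kb), which was 67.2% among the longest and 0 of 715 among the shortest.

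The rule has its threshold at an overlap of 1 bp, and the 5 peaks nearest to it on either side had folds from 1.17 to 1.26 on the wild-type-only side and from 1.20 to 1.22 on the other. The closest peaks on the wild-type-only side were chr3:2709172-2712278 and chr3:5563036-5564074, each 11 bp from a Δasf1 peak, with a fold of 1.22 and 1.20. They were followed by chr1:667682-670165 at 14 bp, chr1:1216661-1216994 at 15 bp and chr4:1908943-1909298 at 17 bp. On the other side, chr1:4593739-4594427 was overlapped by 2 bp, chr5:3196800-3197483 by 3 bp and chr2:2897038-2899089 by 6 bp, with folds of 1.22, 1.21 and 1.20. The overlap was 12 bp at chr3:4239967-4240494 and 13 bp at chr1:8230933-8233200. Within 100 bp of a Δasf1 peak lay 13 wild-type-only peaks, and 57 were within 500 bp.

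The authors' own list of unique wild-type peaks holds 1389 peaks. All 1255 wild-type-only peaks were in it, and they made up 90.4% of it. The further 134 peaks overlapped a Δasf1 peak by between 0.290% and 9.94% of their width, and every peak outside that list was overlapped by 1 Δasf1 peak over at least 10% of its width. The 134 peaks had a median width of 1443.5 bp and a median fold of 1.22.

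Seen from the Δasf1 list, the wild-type-only peaks stood in its longer gaps. The Δasf1 peaks leave 7110 intervals between them, and 1044 of these, 14.7%, contained at least 1 wild-type-only peak. Such intervals had a median length of 6492.5 bp, against 2127 bp for intervals without one. The wild-type-only peaks must fit into the interval, so a relation with length is built into the rule, yet not every long gap was filled. In the longest group (6915 to 27240 bp) 478 of 711 intervals held a wild-type-only peak, 67.2% (63.7% to 70.6%). In 875 intervals there was 1 wild-type-only peak and in 136 there were 2, and in 33 there were 3 to 6 (27 with 3, 4 with 4, and 1 each with 5 and 6). The 3 wild-type-only peaks farthest from any Δasf1 peak were chr7:2846782-2847409, chr5:2162885-2164858 and chr7:1160643-1162290, at 11888, 11498 and 11479 bp. The first, 735 bp from SMAC4_14122, had a fold of 1.37, and the second, in SMAC4_00022, had 1.36. The third, in SMAC4_03381, was weak with 1.19. The fourth was chr2:2539067-2539460 in SMAC4_08360 at 11369 bp with a fold of 1.19, and the next was chr6:3529370-3531503 at SMAC4_12901 and SMAC4_12900, 11018 bp away with a fold of 1.21.

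Within the wild-type list, the edges of wild-type-only peaks stood slightly farther from those of their neighbours. Such gaps also depend on the width of the peaks, which was lower for wild-type-only peaks, and distances between centres were not compared. The gap to the nearer wild-type neighbour had a median of 1650 bp (1596 to 1694 bp) for wild-type-only peaks and of 1543 bp (1523 to 1566 bp) for the other wild-type peaks. For the more distant neighbour it was 3686 bp and 3374 bp. In the 10 kb on both sides of a peak, wild-type peaks covered a median of 34.3% around wild-type-only peaks and 36.3% around the others. The difference was larger for the mutant list, in which Δasf1 peaks covered a median of 30.3% of the flanks of wild-type-only peaks and 35.6% of the flanks of the other wild-type peaks, which the choosing rule also favours. The nearest Δasf1 peak without overlap was one that had no wild-type peak on it for 231 of 1255 wild-type-only peaks, 18.4% (16.4% to 20.6%). For the other wild-type peaks this was the case for 810 of 6175, 13.1% (12.3% to 14.0%). The Δasf1 peaks that overlapped these other peaks were skipped, so both shares concern unlike neighbours. Their difference depends on the choosing rule and was not tested.

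Most wild-type-only peaks were solitary among the wild-type peaks, which their share of 16.9% of the list by itself makes likely. In order along the chromosomes they formed 1001 runs without another wild-type peak in between, and 806 of these runs were a single peak. There were 153 runs of 2 peaks, 33 of 3 and 9 of 4 or more, so that 449 peaks, 35.8%, stood in a run of at least 2. The next peak along the chromosome was wild-type-only for 254 of 1255 wild-type-only peaks, 20.2% (18.1% to 22.6%), and for 1001 of 6168 other wild-type peaks, 16.2% (15.3% to 17.2%). The first share was the higher one on 7 of 7 chromosomes, from 17.4% against 14.8% on chromosome 2 to 25.7% against 17.1% on chromosome 7. A long gap in the Δasf1 list can hold several neighbouring wild-type-only peaks, so this difference depends in part on the choosing rule. It was not tested. In 155 of the 195 runs of 2 or more no Δasf1 peak lay within the span, and in the other 40 runs Δasf1 peaks stood between the wild-type-only peaks.

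The longest run held 7 peaks on chromosome 6, chr6:3519012-3559939, over 40.9 kb. Its peaks were 720 to 2134 bp wide with folds from 1.19 to 1.30, and 6 of them overlapped a gene, among them SMAC4_09158, SMAC4_09804, SMAC4_09547, SMAC4_09548 and SMAC4_07613. The first 4 peaks lay in a stretch of 26823 bp without a Δasf1 peak. In the remainder of the run wild-type-only peaks alternated with 3 Δasf1 peaks of 765, 2872 and 1617 bp and folds of 1.25, 1.27 and 1.23, none of which met a wild-type peak. A run of 6 peaks on chromosome 4, chr4:5053186-5099696, near the end of the chromosome, was of this interleaved kind as well. It spanned 46.5 kb with folds from 1.17 to 1.24 and enclosed 5 Δasf1 peaks, and each of these was without a wild-type peak. Its members overlapped SMAC4_07859, SMAC4_07853 and SMAC4_13712, and 3 of the 6 overlapped no gene.

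The run of 6 peaks on chromosome 7, chr7:1147698-1172244, enclosed no Δasf1 peak. It filled the longest interval between Δasf1 peaks in the genome (27240 bp), with peaks of 660 to 2025 bp and folds from 1.19 to 1.25. Of its 6 peaks 5 overlapped a gene, namely SMAC4_03383, SMAC4_03381, SMAC4_03379, SMAC4_03378 and SMAC4_03377. The run of 5 on chromosome 6, chr6:2261982-2274776, covered 12.8 kb without a Δasf1 peak, and 2 of its peaks overlapped a gene (SMAC4_13987 and SMAC4_13988), while the 3 peaks between them lay up to 4425 bp from a gene. The run of 4 peaks at chr3:4333666-4359592 had folds from 1.21 to 1.26 and enclosed 1 Δasf1 peak. All 42 runs of 3 or more were spread over 7 of 7 chromosomes.

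**Figure D3:**
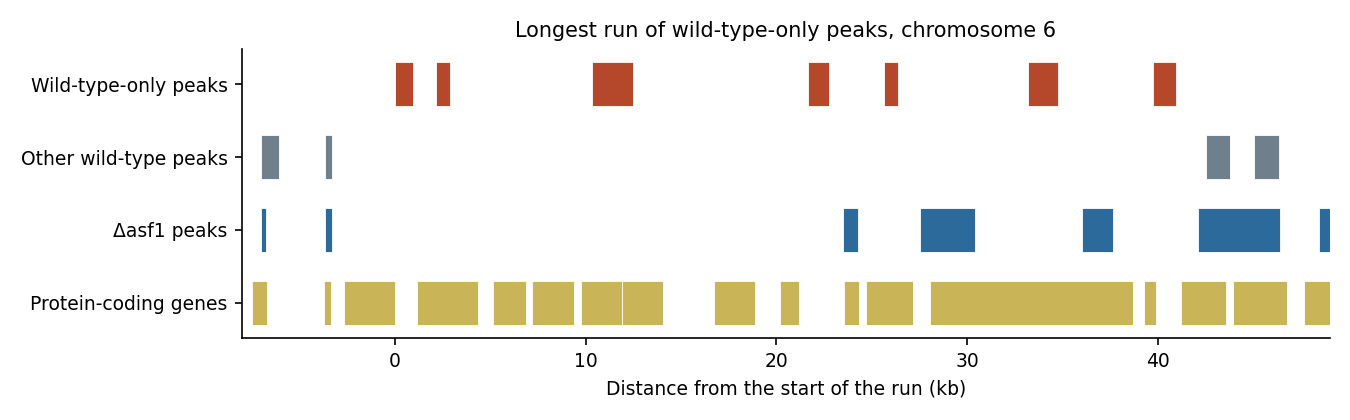
Map of the longest run of wild-type-only peaks on chromosome 6 and 8 kb on either side (x axis, kb from the start of the run). Boxes are wild-type-only peaks, other wild-type peaks, Δasf1 peaks and protein-coding genes, to scale; the 7 wild-type-only peaks and the 3 Δasf1 peaks inside the run do not meet.

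The wild-type-only peaks were found on all chromosomes, with shares that differed by a few percentage points. The share of the wild-type peaks was lowest on chromosome 2 with 178 of 1171 peaks, 15.2% (13.3% to 17.4%), and highest on chromosome 7 with 152 of 814, 18.7% (16.1% to 21.5%). The other chromosomes lay between 16.6% and 17.7%, and the difference between chromosome 7 and chromosome 2, chosen as the highest and the lowest, was 3.47 percentage points (95% interval from 0.141 to 6.90). The interval takes no account of this choice. Under the alternatives, the interval between highest and lowest included 0 in some cases and not in others. The order was not stable, since with a reciprocal overlap of 50% as the rule chromosome 2 had the highest share. Per Mb there were from 27.8 wild-type-only peaks on chromosome 2 to 37.1 on chromosome 7. Each of the 83 windows of 500 kb contained at least 1 of them. Among the 81 windows with 20 or more wild-type peaks the median share was 16.5%. It was lowest at chr2:500001-1000000 with 7 of 97 peaks, 7.22% (3.54% to 14.2%), which is also the window with the peak of highest fold. It was highest at chr5:500001-1000000 with 25 of 89, 28.1% (19.8% to 38.2%), followed by the first window of chromosome 1 with 27 of 98, 27.6% (19.7% to 37.1%). Of these windows, 4 were above 25% and 5 were below 10%. The short last window of chromosome 4, which contains the run of 6 interleaved with Δasf1 peaks, was below this minimum with 9 wild-type-only peaks of 17 (52.9%, 31.0% to 73.8%). Within 50 kb of a chromosome end 18 of 96 wild-type peaks were wild-type-only, 18.8% (12.2% to 27.7%).

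**Figure D4:**
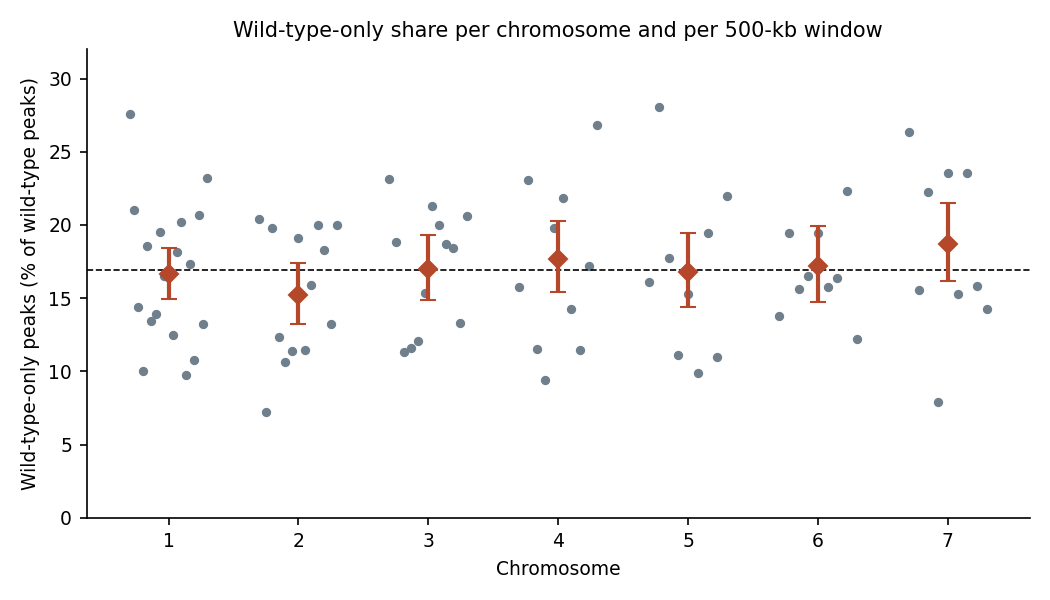
Share of wild-type peaks that were wild-type-only (y axis, percent) on each chromosome (x axis), with diamonds and whiskers for the chromosome and its 95% Wilson interval and grey points for 500-kb windows of at least 20 wild-type peaks. The chromosomes lie between 15.2% and 18.7% around the 16.9% of the list (dashed line), while windows range from 7.22% to 28.1%.

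Wild-type-only peaks lay outside genes more often than the other wild-type peaks. Of the 1255 peaks 449 overlapped no protein-coding gene, 35.8% (33.2% to 38.5%), against 504 of 6175 other wild-type peaks, 8.16% (7.50% to 8.87%). A further 420 crossed a gene border, 33.5% against 57.1% of the others, and 386 were wholly inside genes, 30.8% against 34.8%. The higher share wholly outside genes was seen within each of 4 width classes. Among peaks of 270 to 916 bp, 40.5% of the wild-type-only peaks and 14.3% of the others were wholly outside genes, and among peaks of 917 to 1634 bp 35.9% and 11.3%. It was also seen on 7 of 7 chromosomes. The lower share across a border was not seen among narrow peaks, where it was 19.1% for wild-type-only peaks and 18.0% for the others at 270 to 916 bp, and 39.2% and 36.5% at 917 to 1634 bp. Part of the difference outside genes is fixed by the choosing rule, because a wild-type-only peak can lie only where the Δasf1 list has no peak, and that space is less genic. Genes covered 78.1% of the bases under Δasf1 peaks and 45.8% of the bases outside them. Of the bases of wild-type-only peaks 47.6% were genic, which is close to the space left to them, against 73.2% of the bases of the other wild-type peaks. The part of this restriction in the difference was not tested.

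**Figure D5:**
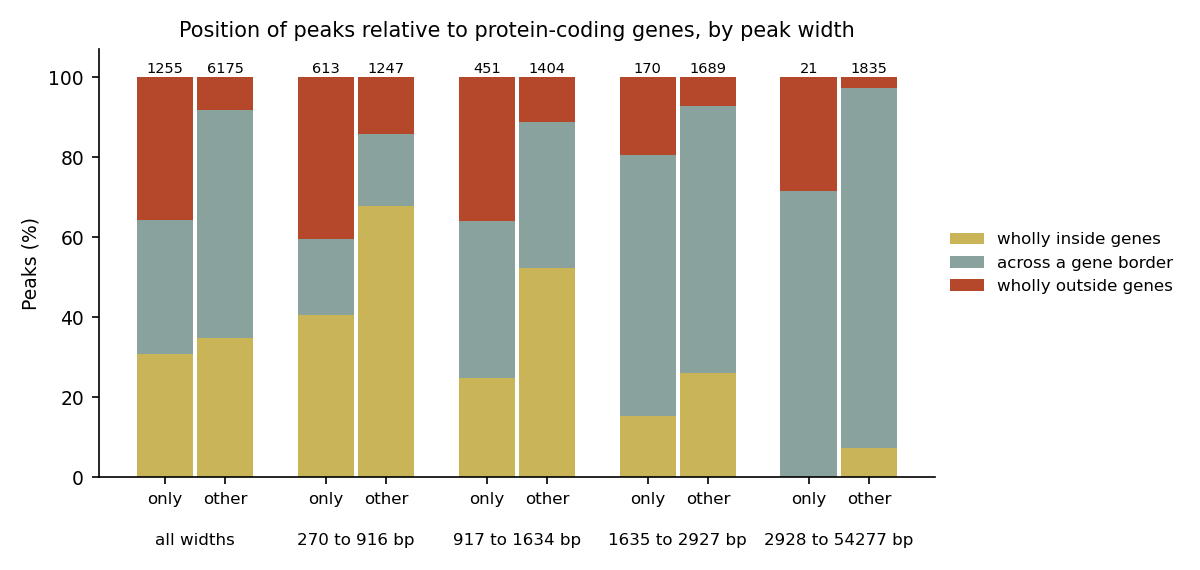
Percentage of peaks (y axis) wholly inside protein-coding genes, across a gene border, or wholly outside genes, for wild-type-only peaks (only) and other wild-type peaks (other), over all widths and in 4 width classes of the wild-type list; numbers above the bars are peaks. In each width class the part wholly outside genes is larger for wild-type-only peaks, 35.8% against 8.16% over all widths.

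Those wild-type-only peaks whose centre was outside genes were also deeper in the gene-free stretches. The distance of the centre to the nearest gene had a median of 1286.5 bp (1132 to 1418 bp, n = 646), against 434.5 bp (389 to 487 bp, n = 1542) for the other wild-type peaks. The gene-free stretch around them had a median length of 4822 bp (n = 646), against 2888 bp for the others (n = 1538, those between 2 genes). The choosing rule favours both differences, because the space without Δasf1 peaks is less genic. Peaks of like width were not compared here. Centres inside a gene were a median of 576 bp from the nearer gene border for wild-type-only peaks (n = 609) and 722 bp for the others (n = 4633). The fold did not differ between positions by much, with medians of 1.23, 1.23 and 1.22 for wild-type-only peaks outside genes, across a border and inside genes. Farther from Δasf1 peaks the centres were less often inside genes, in 53.4% of the 176 peaks up to 1000 bp and in 40.3% of the 77 peaks beyond 5000 bp, and the Wilson intervals of these shares overlap (46.0% to 60.6% and 30.0% to 51.4%).

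At the level of genes, 873 of 10309 protein-coding genes, 8.47%, were touched by a wild-type-only peak, 7590 by another wild-type peak and 7901 by a Δasf1 peak. For 636 genes, 6.17%, a wild-type-only peak was the sole peak of either list. Their median length was 1605 bp, against 1927 bp for all protein-coding genes. Another 170 genes also carried one of the other wild-type peaks, and they were long, with a median of 3654.5 bp. This length is in part built in, because such a gene spans a gap between wild-type peaks, which is at least 1084 bp. In 67 genes a wild-type-only peak and a Δasf1 peak occupied different parts of the gene without another wild-type peak. By comparison, 1266 genes were touched by no peak of either list, and their median length was 1127.5 bp. A long gene meets a peak more readily than a short one, and the differences in length were not tested. The gene table gives neither strands nor products for these genes, so starts and ends of genes and their functions were not distinguished, and asf1 itself carries no symbol in it.

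Genes for RNAs that are not translated were rarely touched by wild-type-only peaks, while their place in the lists differed by class. Transfer RNA genes, which RNA polymerase III transcribes, stand mostly outside H3K56ac peaks in both lists, and 387 of 445 were free of any peak. Only 5 of them, 1.12% (0.481% to 2.60%), lay under a wild-type-only peak, namely SMAC4_13096, SMAC4_13348, SMAC4_13777, SMAC4_13971 and SMAC4_14014, with folds of 1.23, 1.21, 1.21, 1.20 and 1.28. Another wild-type peak touched 49 tRNA genes and a Δasf1 peak 24. Of those 49, 29 were touched by no Δasf1 peak, which is 6.52% of all tRNA genes. Among protein-coding genes this held for 486 of the 7590 under another wild-type peak, 4.71% of all. Protein-coding genes are longer, with a median of 1927 bp against 87 bp, and genes of like length were not compared. The difference was not tested. None of the 30 ribosomal RNA genes was touched by a wild-type-only peak (upper Wilson bound 11.4%), and all 30 were under peaks of both lists. The same held for the 20 genes of the class misc_RNA, with 0 under a wild-type-only peak (upper Wilson bound 16.1%) and all 20 under peaks of both lists.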

How the data were processed

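H3K56ac ChIP-seq of mycelium of Δasf1 and the wild type was deposited as peak lists laid out like broad peaks of MACS. Per the labels, the authors used fastp, Bowtie2 and MACS2; versions and thresholds are not given in the sources used here. The deposited lists hold a fold enrichment (a linear ratio), −log10 p (not used) and −log10 q, averaged over the peak, and a score, which in the deposited files is the integer part of 10 times −log10 q. Both lists are called pooled, yet within a list every peak name holds the same library code (1 per strain), and the sources used here do not settle if 1 or 2 replicates went into it. The lowest −log10 q was 1.04 in Δasf1 and 1.03 in the wild type. Reads, inputs and the list of unique Δasf1 peaks were not used here.

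Positions are 1-based on assembly version 04 named in the lists, and distances are the bases between edges. Genes came from the RefSeq table of assembly ASM3387043v1, used for names, neighbours and overlaps. Its coordinates fitted the lists: 70.6% of wild-type peak centres were inside genes, against 57.3% to 58.7% after shifts of 5000 to 20000 bp. No gene symbols or products were given, so lists by function could not be formed. No genome sequence was at hand and no sequence is shown.

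Shares have 95% Wilson intervals and medians binomial order-statistic intervals (Python 3.11.15, scipy 1.17.1, statsmodels 0.14.6). The functions were tested on simulated intervals. Named peaks were, per rule, the 5 with the highest fold or score, the widest, the farthest from and the closest to Δasf1 peaks, the 5 other wild-type peaks with the shortest overlap, and the 5 longest runs. The members and rules were chosen with earlier results of these data known. Alternatives concerned the overlap, the score threshold, the number of peaks, peak width, the measure of gene context and the authors' unique list.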

Additional observations from a re-analysis of the deposited data

How the results depend on the processing

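No paired analysis was possible because each strain has 1 list without values of single replicates, which also precluded leaving out a replicate. Of 44 values under alternatives, 21 stayed within the 95% interval of the value reported and 23 did not. Counting Δasf1 peaks within 500 bp as overlapping moved no value beyond its interval. With reciprocal overlap of 50% the wild-type-only share was 55.3%, the median width 1324 bp, the gap to Δasf1 peaks 0 bp and to wild-type peaks 1525 bp, the share followed by another 58.4% and the share of centres inside genes, 48.5% as reported, 63.7%. Under this rule a peak counts as wild-type-only even where a Δasf1 peak touches it. With the highest-scoring 3715 wild-type and 3558 Δasf1 peaks these were 36.9%, 1418 bp, 3415 bp, 2821 bp, 40.2% and 63.1%, and the chromosomes differed by 7.07 percentage points instead of 3.47. With the same 3715 wild-type peaks against all Δasf1 peaks the share was 9.77%, the width 1006 bp, the gap to wild-type peaks 2987 bp and the share followed by another 11.6%. With equal numbers of peaks the share was 15.5%. With the authors' unique list it was 18.7%, with a width of 978 bp and a gap to Δasf1 peaks of 1556 bp. Among wild-type peaks of at least the median width the share was 5.14%. Of all 1255 wild-type-only peaks, 64.2% overlapped a gene by any base. Under each of the 7 alternatives to the rule or the lists, the next peak was wild-type-only more often after a wild-type-only peak than after another wild-type peak, with the smallest difference among the wide peaks (6.28% against 5.09%). This difference depends in part on how wild-type-only peaks are chosen, and it was not tested. Chromosome 7 had the highest share as reported, but chromosome 2 did with reciprocal overlap, chromosome 3 with the highest-scoring peaks of both lists and chromosome 4 with those of the wild type alone. The cause of these changes was not tested. Without read counts the depth behind a peak is unknown, so a weak wild-type peak just above the threshold and a place just below it in Δasf1 cannot be told apart.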
